A study of Mus musculus with 23 samples.

Results

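The nuclear genes for subunits of the mitochondrial respiratory chain were followed across cell types of the mouse mammary epithelium. A gene was taken as a member if a probe set listed its symbol alone and the symbol named an NADH dehydrogenase subunit (Ndufa, Ndufb, Ndufc, Ndufs or Ndufv with a number), a succinate dehydrogenase subunit (Sdha to Sdhd), a subunit symbol that begins with Uqcr, or a cytochrome c oxidase subunit written as Cox with a number from 4 to 8, then at most 1 letter from a to c and a closing number. Cox4i1, Cox4i2 and Cox7a2l, whose symbols do not have this form, are counted with the other respiratory chain genes. The rule used no measured difference between groups. It found 60 of the 18193 genes that have such a probe set, with 34 in complex I, 4 in complex II, 8 in complex III and 14 in complex IV. Complexes were assigned by symbol, which counts Ndufa4 in complex I. Each member was represented by 1 probe set, the one whose mean across the 23 arrays was highest. Cox7b2 stayed below the median of every array and did not pass the filter on low values, so 59 members were tested. Another 9 probe sets listed a matching symbol together with another symbol and were not used.

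The respiratory chain passes electrons from NADH and succinate to oxygen. Complex I oxidises NADH, complex II oxidises succinate, both hand electrons to ubiquinone, complex III passes them on to cytochrome c, and complex IV, cytochrome c oxidase, reduces oxygen to water. Complexes I, III and IV pump protons across the inner membrane, and ATP synthase uses the gradient. A few cytochrome c oxidase subunits have isoforms known mainly from heart and skeletal muscle or from testis. In the mammary gland, pregnancy and lactation are known to bring more and larger mitochondria into the secretory epithelium. Subunits coded by mitochondrial DNA are outside the rule.

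Epithelial cells were purified from the mammary glands of C57BL/6 females, and their messenger RNA was measured on 23 Affymetrix arrays. C57BL/6 is a common inbred laboratory strain. The mice carried no transgene or other allele and had no treatment that the labels name. The cell types were mature luminal cells, luminal progenitors and stem cells. The stages were virgins of 3 and 9 weeks, pregnancy at days 10, 16 and 19, and retired breeders. The labels give no age for the pregnant mice or the retired breeders, so either may also differ from 9-week virgins in age. The 3-week stem cells and luminal progenitors, all 3 cell types of 9-week virgins, and the mature luminal and stem cells of day 10 had 2 arrays each. The other 9 of the 16 groups had 1 array, and the only array of day 19 is of mature luminal cells. The labels do not name the surface markers of the purification and do not say that arrays of a group came from separate animals, so the p-values measure the spread between arrays, which may be technical. In bulk RNA, fewer cells of a type and less RNA per cell cannot be told apart.

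Values are the log2 values the authors deposited, with array medians between 4.51 and 5.47. A mean of 10 basal and myoepithelial marker genes lay between 9.94 and 12.80 on the stem cell arrays, against 7.07 to 9.80 on the mature luminal arrays of the same 5 stages. On the luminal progenitor arrays it ran from 7.40 to 11.16, and the day 10 and day 16 arrays, at 10.06 and 11.16, were the highest. The same 2 arrays had mean fibroblast marker levels of 10.32 and 10.86, against 6.89 and 7.14 on the 9-week luminal progenitor arrays. Arrays whose titles carry the same replicate number deviated together: over all genes, the deviations of 2 groups correlated above 0.1 in 21 of 21 pairs of groups, with a median r of 0.47. Below, the arrays titled replicate 1 are therefore also set against one another, apart from those titled replicate 2 and those with no number.

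The promoters of members that the results turn on are printed from RefSeq (GRCm38.p6), each as 300 bases from 250 before to 50 after the annotated start. They are shown because Ndufb5, Ndufa5 and Ndufc2 passed the test for pregnancy. Sdhd did not pass it in the main fit but did with the replicate number in the model. Of such members only those with an NRF1 match were printed. Cox7a1 and Cox6b2 are isoforms of restricted tissues. In the order printed, the promoters lie at chr3:32736813-32737112 (plus strand), chr6:24527477-24527776 (minus strand), chr7:97399753-97400052 (plus strand), chr9:50603800-50604099 (minus strand), chr7:30183921-30184220 (plus strand) and chr7:4753045-4753344 (minus strand). Capitals mark matches to the motifs named below, and sequences with no capitals hold none.
Ndufb5: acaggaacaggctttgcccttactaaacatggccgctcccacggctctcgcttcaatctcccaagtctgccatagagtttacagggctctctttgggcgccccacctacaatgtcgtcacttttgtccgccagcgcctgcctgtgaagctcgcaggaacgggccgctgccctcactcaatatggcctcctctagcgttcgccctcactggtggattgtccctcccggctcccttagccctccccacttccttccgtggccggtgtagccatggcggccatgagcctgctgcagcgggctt
Ndufa5: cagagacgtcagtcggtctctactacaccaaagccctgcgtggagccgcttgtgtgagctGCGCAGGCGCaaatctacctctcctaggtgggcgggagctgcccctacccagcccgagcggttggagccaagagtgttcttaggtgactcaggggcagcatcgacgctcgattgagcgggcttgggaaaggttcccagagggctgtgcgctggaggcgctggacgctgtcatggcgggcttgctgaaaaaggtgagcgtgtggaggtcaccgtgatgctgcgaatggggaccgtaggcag
Ndufc2: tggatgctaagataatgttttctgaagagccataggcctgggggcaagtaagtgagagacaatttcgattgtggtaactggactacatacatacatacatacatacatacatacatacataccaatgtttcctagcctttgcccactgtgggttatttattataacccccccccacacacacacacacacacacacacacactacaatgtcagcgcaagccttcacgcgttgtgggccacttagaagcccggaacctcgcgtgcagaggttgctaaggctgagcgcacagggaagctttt
Sdhd: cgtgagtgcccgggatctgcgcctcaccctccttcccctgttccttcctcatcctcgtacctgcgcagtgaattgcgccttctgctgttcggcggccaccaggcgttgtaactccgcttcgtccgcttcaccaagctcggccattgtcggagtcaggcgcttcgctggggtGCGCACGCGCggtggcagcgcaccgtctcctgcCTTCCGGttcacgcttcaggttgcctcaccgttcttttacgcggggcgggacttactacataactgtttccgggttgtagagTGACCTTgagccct
Cox7a1: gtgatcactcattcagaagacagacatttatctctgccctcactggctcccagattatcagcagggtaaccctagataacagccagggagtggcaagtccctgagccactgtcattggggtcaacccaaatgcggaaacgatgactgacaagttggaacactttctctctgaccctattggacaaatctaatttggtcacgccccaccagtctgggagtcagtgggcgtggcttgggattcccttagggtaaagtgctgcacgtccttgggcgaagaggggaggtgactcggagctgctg
Cox6b2: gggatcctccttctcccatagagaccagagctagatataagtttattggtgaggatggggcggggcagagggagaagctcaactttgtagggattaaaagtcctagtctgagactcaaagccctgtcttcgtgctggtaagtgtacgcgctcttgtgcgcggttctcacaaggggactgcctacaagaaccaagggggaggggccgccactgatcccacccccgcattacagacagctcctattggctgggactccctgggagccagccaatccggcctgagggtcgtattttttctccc

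Promoters of 50 of the 60 members were in the table. Cox6a2, Cox6c, Cox8c, Ndufa2, Ndufb9, Ndufs1, Sdhc, Uqcrb, Uqcrc2 and Uqcrq were not among them. Motifs of factors known to act on respiratory genes were searched on both strands. The NRF1 motif, which reads GCGC, any base, then TGCGC, was in 9 of the 50 promoters (18.0%), against 4.78% of all 27025 promoters of the table. It was found in Cox6a1, Ndufa5, Ndufa6, Ndufa8, Ndufb4, Ndufs5, Sdha, Sdhd and Uqcrc1. The ETS motif CCGGAAG, which GABP (NRF2) also reads, was in 11 (22.0%), against 9.12% of all promoters. The YY1 motif AAGATGGCG was in 4 (8.0%, against 1.49%), and the oestrogen-related receptor motif AAGGTCA was in 4 (8.0%, against 4.66%). The printed Ndufa5 promoter holds an NRF1 match and the Sdhd promoter holds a match each for NRF1, ETS and the oestrogen-related receptor motif. Sdhd was printed because of its NRF1 match, so that match says nothing about the members that passed. A match describes these letters and is no evidence of binding.

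Most members were far above the background of the arrays. Of the 60 members, 52 lay above the array median on all 23 arrays. Ndufb11, an accessory subunit of the complex I membrane arm, ran from 12.34 to 13.27. Sdha, the flavoprotein of complex II, ran from 9.66 to 12.03, Uqcrb, a small subunit of complex III, from 12.81 to 13.68, and Cox7a2, the widely expressed isoform of its complex IV position, from 12.71 to 13.66. The 8 members that fell below the array median somewhere were Cox7b2 and Ndufb4 on all 23 arrays, Cox8b on 20, Ndufb1 on 17, Cox8c on 9, Cox6a2 on 8, and Cox6b2 and Cox7a1 on 1 each. For Ndufb4 the single-symbol probe set ran from 0.39 to 4.47, and Ndufb1 was listed at 0 on the day 10 stem array titled replicate 1. A difference in such a low probe set gives no exact fold.

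The members largely moved together from array to array. Over the 52 members above the median everywhere, the 1326 pairs had a median Pearson r of 0.62 across the 23 arrays, and 92.7% of pairs were above 0. With the difference between replicate numbers removed the median was 0.67. The 7 other tested members had a median r of 0.18 with these 52. Within the tested members, chosen after their values were seen, Ndufb9 (0.95) and Ndufa12 (0.94) were closest to the mean of the 52. Cox6a2 (-0.44), Cox7c (-0.30), Cox6b2 (0.05) and Ndufa4 (0.13), a protein first assigned to complex I and now known as a complex IV subunit, were the farthest from it. These are descriptions over arrays that share stages, cell types and replicate numbers. Correlations of other genes of similar level were not computed, so moving together is not shown to be particular to the members.

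The median member value ranked the day 16 mature luminal array first, at 11.96, followed by the day 10 luminal progenitor array at 11.62 and the day 16 stem array at 11.59. The lowest were the 9-week stem array titled replicate 2, at 10.04, and the 9-week luminal progenitor array titled replicate 1, at 10.33. Arrays of one group could lie far apart. In 9-week stem cells the members were higher on the array titled replicate 1 than on its replicate by a median of 0.82, in 54 of 59 members. In 9-week mature luminal cells the array titled replicate 1 was the lower one, with a median of -0.57 and 8 of 59 members higher. The gap in the other 5 pairs ran from -0.44 to -0.01. Over all genes the median gap of the 7 pairs lay between -0.15 and 0.20.

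**Figure D1:**
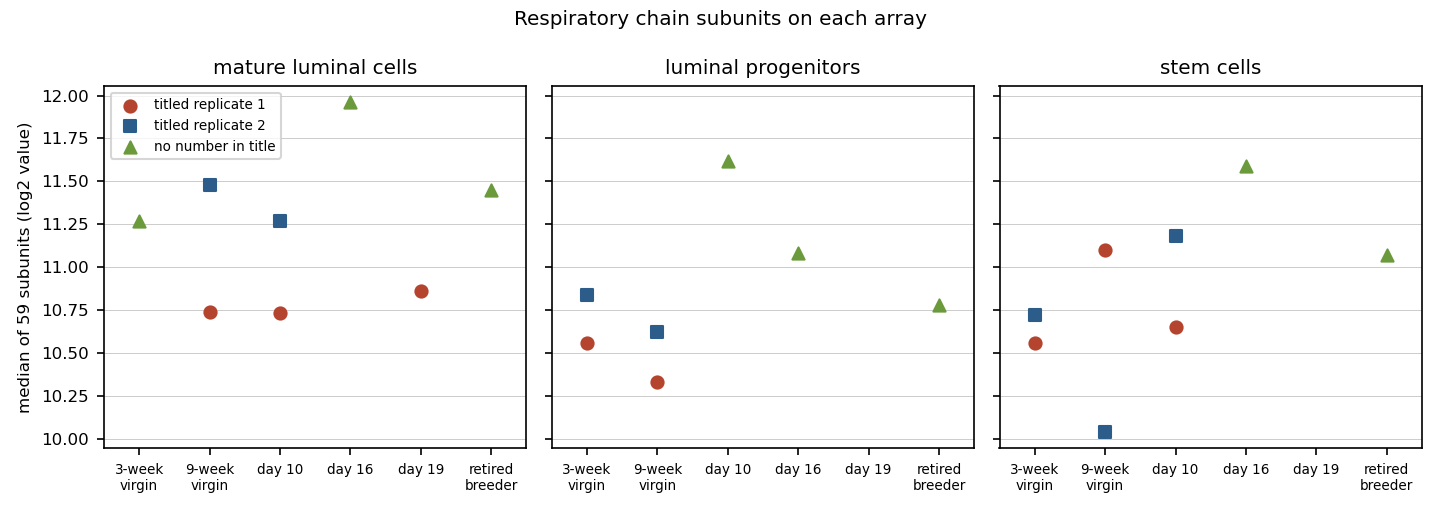
Median log2 value of the 59 tested subunits on each of the 23 arrays, by stage (x axis) and cell type (panels), with the replicate number of the array title as colour and shape. The day 16 mature luminal array is highest at 11.96, and the 2 arrays of 9-week stem cells, at 11.10 and 10.04, lie far apart.

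The mid-pregnancy comparison asked which subunits differed between days 10 and 16 of pregnancy, 8 arrays, and 9-week virgins, 6 arrays, with equal weight for each cell type. Among subunits of complex I, Ndufc2 and Ndufb5, Ndufb9 of the membrane arm, and Ndufa5 of the peripheral arm passed the test as higher in pregnancy. In all 4 of 59 members were higher and 0 lower, where 3.77% of the 15378 genes tested were higher and 3.36% lower. A count of 4 is not far from the share of higher genes, and it fell to 0 under several settings given below. The test was limma with Benjamini-Hochberg adjustment over all genes, at an adjusted p under 0.05. At an unadjusted p under 0.05, 28 members were higher, against 14.8% of all genes, and 0 were lower. The difference was above 0 in 56 of 59 members (55.5% of all genes), with a median of 0.53 for the members and 0.10 for all genes.

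Ndufc2, an accessory subunit of the complex I membrane arm, had 12.73 and 12.15 in luminal progenitors of days 10 and 16, against 10.77 and 11.51 in those of 9-week virgins. In mature luminal cells it had 11.49, 12.13 and 12.68 in pregnancy, against 11.29 and 11.88 in 9-week virgins. In stem cells it had 11.34, 11.60 and 12.14 in pregnancy, against 11.34 and 11.03. The luminal progenitor values of pregnancy lay above both 9-week values, while mature luminal values overlapped and the lowest stem value of pregnancy equalled the higher 9-week value. The fitted difference was 0.86 ± 0.20 (SE), with a limma adjusted p of 0.0254. Its other 3 probe sets above the filter differed by 0.91 ± 0.27, 0.98 ± 0.25 and 1.81 ± 0.94. Among these 3 is a low probe set, with a mean of 3.43 over the arrays.

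Ndufb5, another membrane-arm accessory subunit, had a lowest, median and highest value of 11.27, 11.70 and 12.23 on the 8 pregnancy arrays, against 10.73, 11.13 and 11.52 on the 6 arrays of 9-week virgins. The ranges overlapped between 11.27 and 11.52. The difference was 0.69 ± 0.16 (SE), with a limma adjusted p of 0.0277, and 0.52 ± 0.18 in its other probe set. Ndufa5, an accessory subunit of the arm that reduces ubiquinone, had 10.97, 11.58 and 12.30 in pregnancy, against 10.14, 10.78 and 11.37 in 9-week virgins. These ranges overlapped too, and the difference was 0.97 ± 0.26 (SE), with a limma adjusted p of 0.0421. Ndufb9 had 10.75, 11.59 and 12.65 in pregnancy, against 9.89, 10.73 and 11.83 in 9-week virgins. Its difference was 0.998 ± 0.27 (SE), with a limma adjusted p of 0.0483.

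By complex, all 34 members of complex I had a difference above 0, with a median of 0.58. At an unadjusted p under 0.05, 20 of them were higher, against 14.8% of all genes. The 34 include Ndufa4, placed there by its symbol, and the low probe sets of Ndufb1 and Ndufb4. Among those that did not pass after adjustment, Ndufb8 differed by 0.77 ± 0.21 with a limma adjusted p of 0.0520. The 4 succinate dehydrogenase subunits had a median of 0.56 and none passed. Sdhd, a membrane anchor, had 10.57, 11.05 and 11.77 in pregnancy, against 9.79, 10.44 and 11.07 in 9-week virgins, and differed by 0.72 ± 0.22 (limma adjusted p = 0.0668). Sdhb, the iron-sulphur subunit, differed by 0.64 ± 0.31, Sdha by 0.48 ± 0.26 and Sdhc, the other anchor, by 0.39 ± 0.26. In complex III the median was 0.46 over 8 members, with Uqcrq at 0.81 ± 0.30 and Uqcrb at 0.16 ± 0.14. In complex IV it was 0.27 over 13 members, and 10 of them were above 0. Cox7a2 (-0.04 ± 0.11) and Cox7c (-0.32 ± 0.35) were among the 3 below 0.

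**Figure D2:**
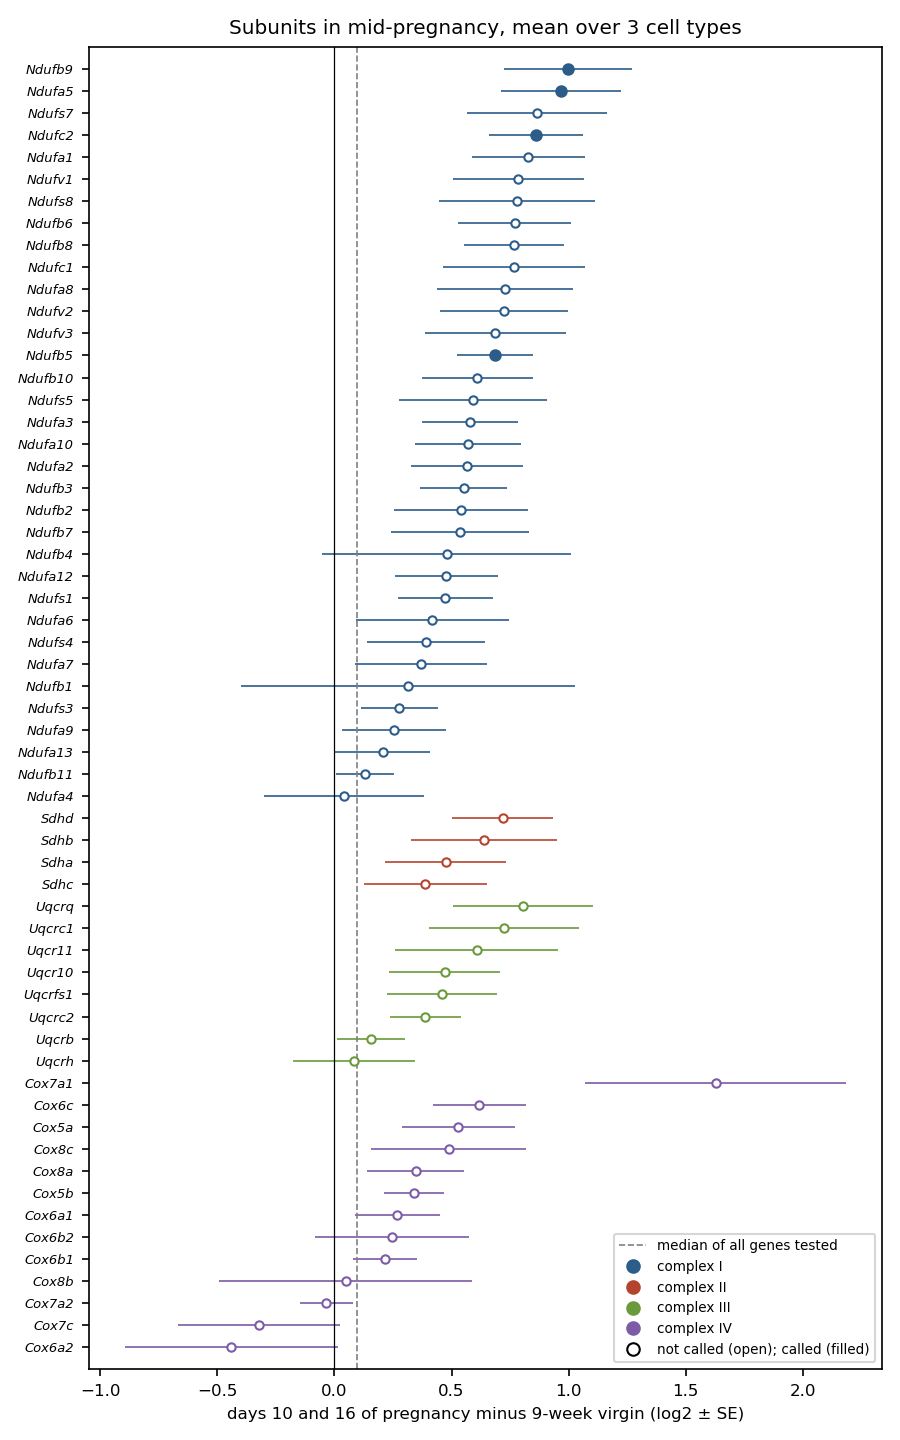
Difference of days 10 and 16 of pregnancy minus 9-week virgins for the 59 tested subunits (x axis, log2, bars ± SE from the limma model), grouped by complex. Filled points passed the adjusted test (Ndufc2, Ndufb5, Ndufa5, Ndufb9), and the dashed line is the median of all genes tested, 0.10.

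The replicate number changed this result. With the number as a block and the arrays without a number placed with replicate 2, a placement that the labels do not give and that was chosen with earlier results of these data known, 10 of 59 members were higher, where 8.48% of all genes were higher. They were Ndufa1, Ndufa2, Ndufa5, Ndufb5, Ndufb6, Ndufb8, Ndufb9, Ndufc2, Ndufv1 and Sdhd. With the numbered arrays alone, which leaves day 10 in stem and mature luminal cells, 0 members passed in limma, 0 had an unadjusted p under 0.05, and the median difference was 0.05. Among arrays titled replicate 1, mid-pregnancy is likewise day 10 in stem and mature luminal cells, fitted with additive terms for stage and cell type. The members had a median difference of -0.15 there and 13 of 59 were above 0, with Ndufb9 at -0.16 ± 0.28. Sdhb was at -0.68, Sdhc at -0.50 and Sdha at -0.30 there. Among the other arrays the median was 0.60 (0.13 for all genes), with 0 members passing in limma, against 3.36% of all genes in either direction. At an unadjusted p under 0.05 there were 35 members, with no share of all genes at that threshold to set beside them.

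Matched single arrays differed by cell type and replicate number. In stem cells of day 10, the members were lower than in 9-week virgins by a median of -0.38 between arrays titled replicate 1, with 8 of 59 above 0, and higher by 0.86 between arrays titled replicate 2, with 53 of 59 above 0. The day 16 stem array was higher than the same 9-week array by 1.19, with 56 of 59 above 0. In luminal progenitors the median was 1.03 at day 10 and 0.54 at day 16, against the 9-week array titled replicate 2. In mature luminal cells of day 10 it was 0.01 between arrays titled replicate 1 and -0.15 between those titled replicate 2, and at day 16 it was 0.35. These differences share 9-week arrays, and the 9-week stem array titled replicate 2 is the lowest of the series.

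**Figure D3:**
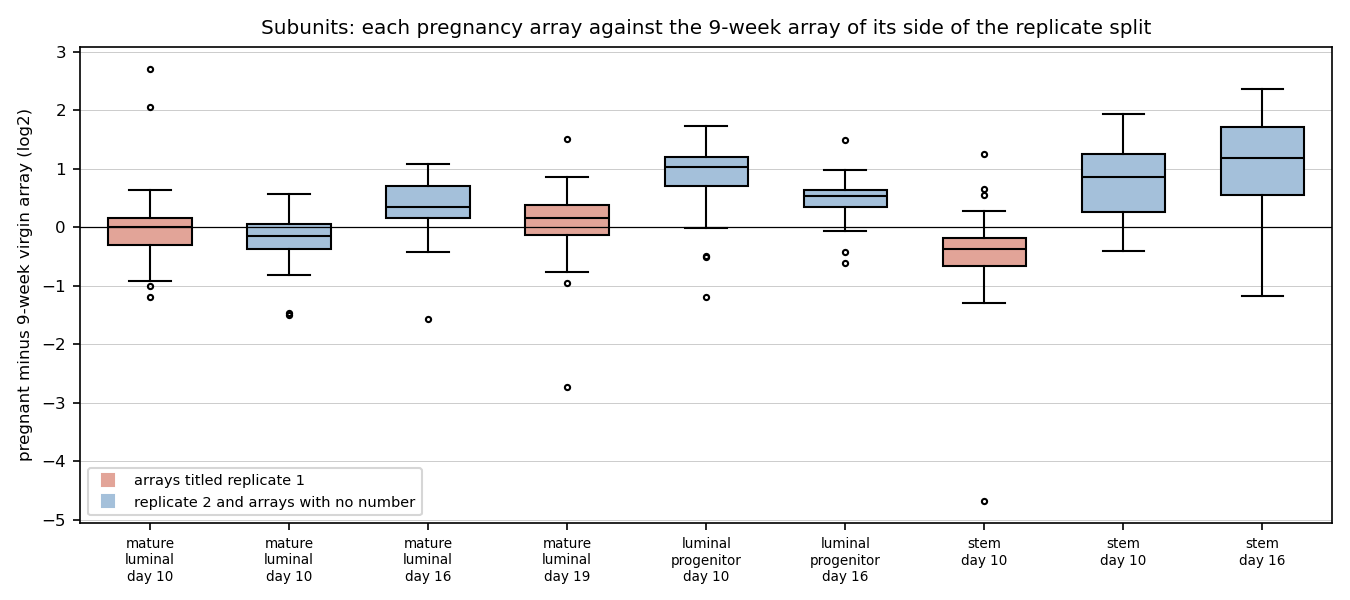
Differences (y axis, log2) of the 59 subunits between each pregnancy array and the 9-week virgin array of the same cell type and the same side of the replicate split, as boxes with median, quartiles, whiskers to 1.5 times the interquartile range and points beyond. Medians run from -0.38 in day 10 stem cells titled replicate 1 to 1.19 in day 16 stem cells.

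The number of members that passed also depended on single arrays. It was 14 without the 9-week stem array titled replicate 1, where 5.17% of all genes were higher. It was 0 in limma without the day 10 luminal progenitor, the day 16 stem or the day 16 mature luminal array. It was also 0 in limma without the 9-week mature luminal or luminal progenitor array titled replicate 1. In these settings 1.63% to 2.59% of all genes were higher after adjustment, and 12 to 21 members had an unadjusted p under 0.05. The share of all genes at an unadjusted p is given only for the main fit, where 14.8% were higher. The number of members that passed was 1 without the 9-week stem array titled replicate 2 or the day 10 mature luminal array titled replicate 2. That number was 2 without either day 10 stem array or either 3-week stem array. In these 6 settings 2.35% to 3.84% of all genes were higher.

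Other markers moved with the comparison. Of 7 milk secretion genes, 6 were higher in mid-pregnancy, and their mean level was 10.48 to 13.51 on the pregnancy arrays, against 6.04 to 10.02 in 9-week virgins. Of 10 basal and myoepithelial markers, 4 were higher (Acta2, Cnn1, Myh11 and Tagln), with means of 8.14 to 12.80 in pregnancy, against 7.07 to 12.57. Of 11 luminal markers, Elf5 was higher and Esr1, Foxa1 and Pgr were lower. The 8 fibroblast markers had means of 3.88 to 10.86, against 4.36 to 8.11, and the 7 leukocyte markers 4.45 to 9.02, against 4.98 to 6.95, with 0 of them passing. The 8 endothelial markers, with 0 passing, had means of 5.64, 6.04 and 6.63 on pregnancy stem arrays, against 9.46 and 9.47 on 9-week stem arrays. Their median difference was -3.45 within stem cells (0 of 8 above 0), 1.70 within luminal progenitors (8 of 8) and -0.34 within mature luminal cells (2 of 8). Of 3 erythroid markers tested Hbb-b2, a haemoglobin gene, was higher (4.28 ± 1.01), and the mean of the erythroid list was 1.53 to 4.86, against 1.91 to 3.13. Their part in the result was not tested. Without the 2 luminal progenitor arrays of pregnancy the comparison covers stem and mature luminal cells only. In it 0 members passed in limma, 9 had an unadjusted p under 0.05, and the median difference was 0.42. The 3′ minus 5′ difference of Gapdh, a sign of RNA quality, was 1.03 to 2.34 on the pregnancy arrays, against 0.87 to 1.97.

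Within single cell types none of the 59 members passed in limma for mid-pregnancy. In luminal progenitors 17 had an unadjusted p under 0.05 (12.8% of all genes), the median was 0.77 (0.25 for all genes) and 0.156% of all genes passed. Its smallest p-values belonged to Ndufb5 (1.11 ± 0.30), Ndufc2 (1.30 ± 0.36) and Ndufb3 (1.11 ± 0.34). In stem cells 7 had an unadjusted p under 0.05 (12.1% of all genes), the median was 0.50 (0.13) and 0.26% of all genes passed. Cox6c (0.91 ± 0.34), Ndufv1, the NADH-binding flavoprotein (1.23 ± 0.47), and Ndufs7 (1.29 ± 0.51) came first. Without the 9-week stem array titled replicate 2 or titled replicate 1, Ndufv1 moved to 0.33 or 2.13, Ndufs7 to 0.50 or 2.08, and the median of the members to 0.13 or 0.88. In mature luminal cells 0 had an unadjusted p under 0.05 (12.8% of all genes), the median was 0.25 (-0.08) and 2.25% of all genes passed, with Ndufc2 (0.66 ± 0.34), Cox6b2 (-1.06 ± 0.56) and Ndufa5 (0.79 ± 0.43) first. The median turned to -0.08 without the day 16 array and was 0.61 without the 9-week array titled replicate 2 and 0.04 without that titled replicate 1. In luminal progenitors it was 0.49 without the day 10 array. The pregnancy effect in mature luminal cells minus that in stem cells had a median of -0.16 (all genes -0.20), and minus that in luminal progenitors -0.52 (all genes -0.32). No member passed in either in limma. The first had 0 members at an unadjusted p under 0.05 (5.86% of all genes), with Cox6b2 (-1.32 ± 0.79), Ndufs7 (-1.10 ± 0.72) and Cox6c (-0.72 ± 0.48) first, and 0.013% of all genes passed. The second had 1 (5.13% of all genes), Cox6b2 (-2.60 ± 0.81), followed by Cox8b (-2.30 ± 1.34) and Ndufb5 (-0.64 ± 0.40), and 0% of all genes passed.

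Day 19 of pregnancy, with 1 array of mature luminal cells, was set against 9-week virgins of the same cell type. None of the 59 members passed in limma and 1 had an unadjusted p under 0.05 (11.1% of all genes), where 1.14% of all genes passed. The median was -0.04 for the members and -0.25 for all genes. That 1 member was Cox6b2, the testis isoform of a complex IV subunit, which had 3.61 at day 19, below the array median, against 6.34 and 7.44 in 9-week virgins. Its difference was -3.28 ± 0.73 (SE), with a limma adjusted p of 0.0602, and with the replicate block -2.99 ± 0.57 with an adjusted p of 0.0101, where 4.71% of all genes passed. Ndufa7 (-1.14 ± 0.63) and Ndufs7 (-1.14 ± 0.66) came next. Against the 9-week array titled replicate 1, the number the day 19 array also carries, the members' median was 0.16 with 37 of 59 above 0. Over all genes that median was -0.23, with 38.8% above 0. The lone day 19 array is assumed to vary like the groups of 2.

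The cell type comparison asked which subunits differed between mature luminal and stem cells, averaged over the 5 stages that have both. Uqcrc2, a core protein of complex III, was higher in mature luminal cells and was the only 1 of 59 members to pass in limma. Of all genes 1.56% were higher and 6.78% lower, so a count of 1 higher member is near the share of all genes. At an unadjusted p under 0.05, 15 members differed, 14 of them higher, against 8.2% of all genes higher. The difference was above 0 in 55 of 59 members (51.9% of all genes), with a median of 0.39 for the members and 0.03 for all genes.

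Uqcrc2 had a lowest, median and highest value of 11.48, 11.76 and 12.10 on 7 mature luminal arrays, against 10.65, 11.16 and 11.59 on 8 stem arrays. The ranges overlapped between 11.48 and 11.59. The difference was 0.57 ± 0.15 (SE), with a limma adjusted p of 0.0370, and it was 0.72 ± 0.18 in its other probe set. Ndufb3, an accessory subunit of the complex I membrane arm, had 9.84, 10.23 and 11.01 in mature luminal cells, against 9.37, 9.58 and 10.28 in stem cells, and differed by 0.62 ± 0.18 (limma adjusted p = 0.0591). Uqcrfs1, the Rieske iron-sulphur protein of complex III, had 10.32, 11.06 and 11.85, against 9.53, 10.12 and 10.98 in stem cells, and differed by 0.73 ± 0.23 (limma adjusted p = 0.0807). The succinate dehydrogenase subunits differed by 0.67 ± 0.26 (Sdha), 0.33 ± 0.31 (Sdhb), 0.50 ± 0.26 (Sdhc) and 0.56 ± 0.21 (Sdhd), and none passed. The medians were 0.40 in complex I, 0.53 in complex II, 0.35 in complex III and 0.31 in complex IV.

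With the replicate number as a block over all 23 arrays, 8 members were higher in mature luminal cells (6.71% of all genes) and 1 lower (12.9% of all genes). The higher ones were Cox6b1, Cox7a2, Ndufa4, Ndufa9, Ndufb3, Sdha, Uqcrc2 and Uqcrfs1, by 0.32 to 0.73, and the lower one was Cox6b2, by -1.18 ± 0.25 (limma adjusted p = 0.00551). Among arrays titled replicate 1 the median difference was 0.01, with 0 members passing in limma and 6 at an unadjusted p under 0.05. Among the other arrays it was 0.54 (0.06 for all genes) and 5 members were higher, where 4.43% of all genes were. In 9-week virgins the members were lower in mature luminal cells by a median of -0.20 between arrays titled replicate 1, with 15 of 59 above 0, and higher by 1.17 between those titled replicate 2, with 55 of 59 above 0. The pairs of the other stages had medians from 0.15 to 0.41. The count ranged from 0 to 4 when single arrays were left out, with 4 higher without the 9-week stem array titled replicate 1, where 3.11% of all genes were higher. When each of the 23 arrays was left out in turn, Uqcrc2 did not pass for 12 of them (limma adjusted p 0.0545 to 0.0911), among them both day 10 mature luminal arrays and the 3-week mature luminal array.

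**Figure D4:**
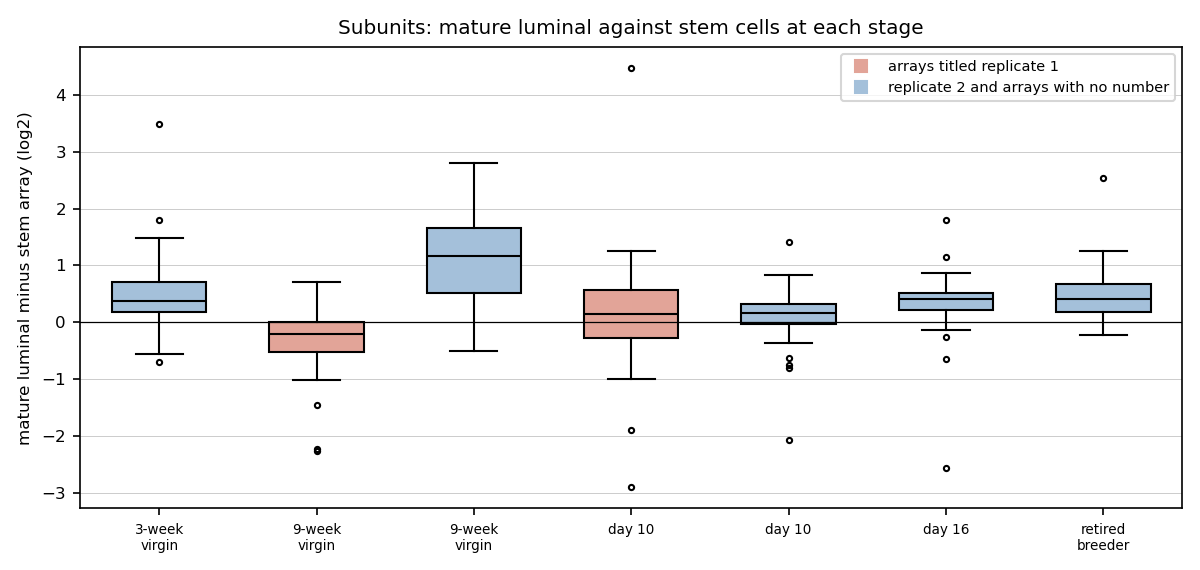
Differences (y axis, log2) of the 59 subunits between the mature luminal and the stem array of each stage and side of the replicate split, as boxes with median, quartiles, whiskers to 1.5 times the interquartile range and points beyond. Medians run from -0.20 to 1.17, both in 9-week virgins, and lie between 0.15 and 0.41 at the other stages.

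Markers of other cells differed along with cell type. Of 10 basal and myoepithelial markers 9 were lower in mature luminal than in stem cells, as were 5 of 8 endothelial markers (Esam, Pecam1, Plvap, Tek and Tie1) and 4 of 8 fibroblast markers, whose means ran from 3.88 to 8.30, against 6.96 to 9.43 in stem cells. Their part in the result was not tested. The 3-week mature luminal array and the retired breeder stem array had the largest Gapdh 3′ minus 5′ differences, 5.16 and 3.77. Without both, 6 members in place of 15 had an unadjusted p under 0.05, 1 was higher and 1 lower after adjustment, and the median was 0.31. Without the 3-week mature luminal array alone, 9 had an unadjusted p under 0.05.

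Between luminal progenitors and stem cells, 0 of 59 members passed in limma (4.38% of all genes did), 4 had an unadjusted p under 0.05 (18.9% of all genes), and the median was 0.00. The smallest p-values were those of Ndufb3 (0.49 ± 0.18), Ndufa9 (0.52 ± 0.22) and Cox7c (0.80 ± 0.34). With the replicate block Cox7c (0.86 ± 0.27) and Ndufa9 (0.56 ± 0.16), an accessory subunit at the base of the complex I peripheral arm, were higher in luminal progenitors, where 4.81% of all genes were. Between mature luminal cells and luminal progenitors 0 members passed in limma (0.124% of all genes did) and 7 had an unadjusted p under 0.05, all higher (1.46% of all genes). The median was 0.32 (0.02 for all genes) and 53 of 59 were above 0 (52.6% of all genes). Ndufb11 (0.32 ± 0.13), Cox6c (0.51 ± 0.20) and Cox5b (0.32 ± 0.13) came first. Between matched arrays the median was -0.34 at day 10, with 10 of 59 above 0, and 0.29 to 0.72 in the other pairs, and without the day 10 luminal progenitor array the fitted median was 0.54. Of 8 fibroblast markers 2 were lower in mature luminal cells, Col1a1 and Lum, with 0 of 8 above 0 and a median of -3.40. Their part in the result was not tested.

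No member passed between 9-week virgins and either 3-week virgins or retired breeders, which does not show equality. At 3 weeks 0 members passed in limma against 9 weeks (0.176% of all genes did), 0 had an unadjusted p under 0.05 (10.9% of all genes), and the median was 0.09 (0.11 for all genes). Ndufc2 (0.44 ± 0.23), Cox5b (0.28 ± 0.14) and Cox6b1 (0.30 ± 0.15) had the smallest p-values. In retired breeders, which differ from virgins in parity and may differ in age, 0 members passed in limma (0.0065% of all genes did), 0 had an unadjusted p under 0.05 (7.24% of all genes), and the median was 0.17 (0.21). Ndufa5 (0.67 ± 0.33), Ndufa1 (0.60 ± 0.31) and Ndufc1 (0.71 ± 0.39) came first.

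The cytochrome c oxidase isoforms of restricted tissues differed in whether they rose above the arrays' medians. Cox7a1, known from heart, skeletal muscle and brown fat, lay below the median on 1 array. It reached 9.91 in 3-week mature luminal cells, on the array with the largest Gapdh 3′ minus 5′ difference (5.16). In luminal progenitors it had 9.31 and 8.47 at days 10 and 16 of pregnancy, against 5.0 and 7.58 in 9-week virgins, and in mature luminal cells 6.94, 8.13 and 9.00, against 6.31 and 7.92. In stem cells it had 7.47, 6.71 and 7.21 in pregnancy, against 6.92 and 5.12. Luminal progenitor values did not overlap, and those of the other types did. Over the cell types its difference was 1.63 ± 0.56 (limma adjusted p = 0.0960), and mature luminal cells exceeded stem cells by 1.47 ± 0.55 (limma adjusted p = 0.135), so it passed neither. Its widely expressed counterpart Cox7a2 differed by -0.04 ± 0.11 and 0.31 ± 0.11. Without the 3-week mature luminal array, mature luminal cells exceeded stem cells by 0.88 for Cox7a1.

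Cox6b2 had its highest values in stem cells, with a lowest, median and highest value of 5.56, 6.34 and 7.72 on 7 mature luminal arrays of 5 stages, 5.89, 7.10 and 7.81 on 7 luminal progenitor arrays, and 6.37, 7.84 and 8.44 on 8 stem arrays. The ranges overlapped. Mature luminal minus stem was -1.12 ± 0.33 (limma adjusted p = 0.0557), short of the threshold without the replicate block. Its counterpart Cox6b1 differed by 0.42 ± 0.14 (limma adjusted p = 0.0865). Cox6a2, the muscle isoform, ran from 4.24 to 7.57 and was highest on the day 10 stem array titled replicate 1, at 7.57, against 5.04 on the array titled replicate 2. Its counterpart Cox6a1 ran from 12.22 to 13.41. Cox8b, the other muscle isoform, ran from 1.93 to 6.33, Cox8c, known from testis, from 4.02 to 5.74, and their counterpart Cox8a from 10.47 to 11.96. Cox7b2, the testis isoform that was not tested, ran from 0.07 to 3.30. Of 10 striated muscle markers, 0 to 4 reached the array median on any array, and of 7 adipocyte markers 1 to 4.

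**Figure D5:**
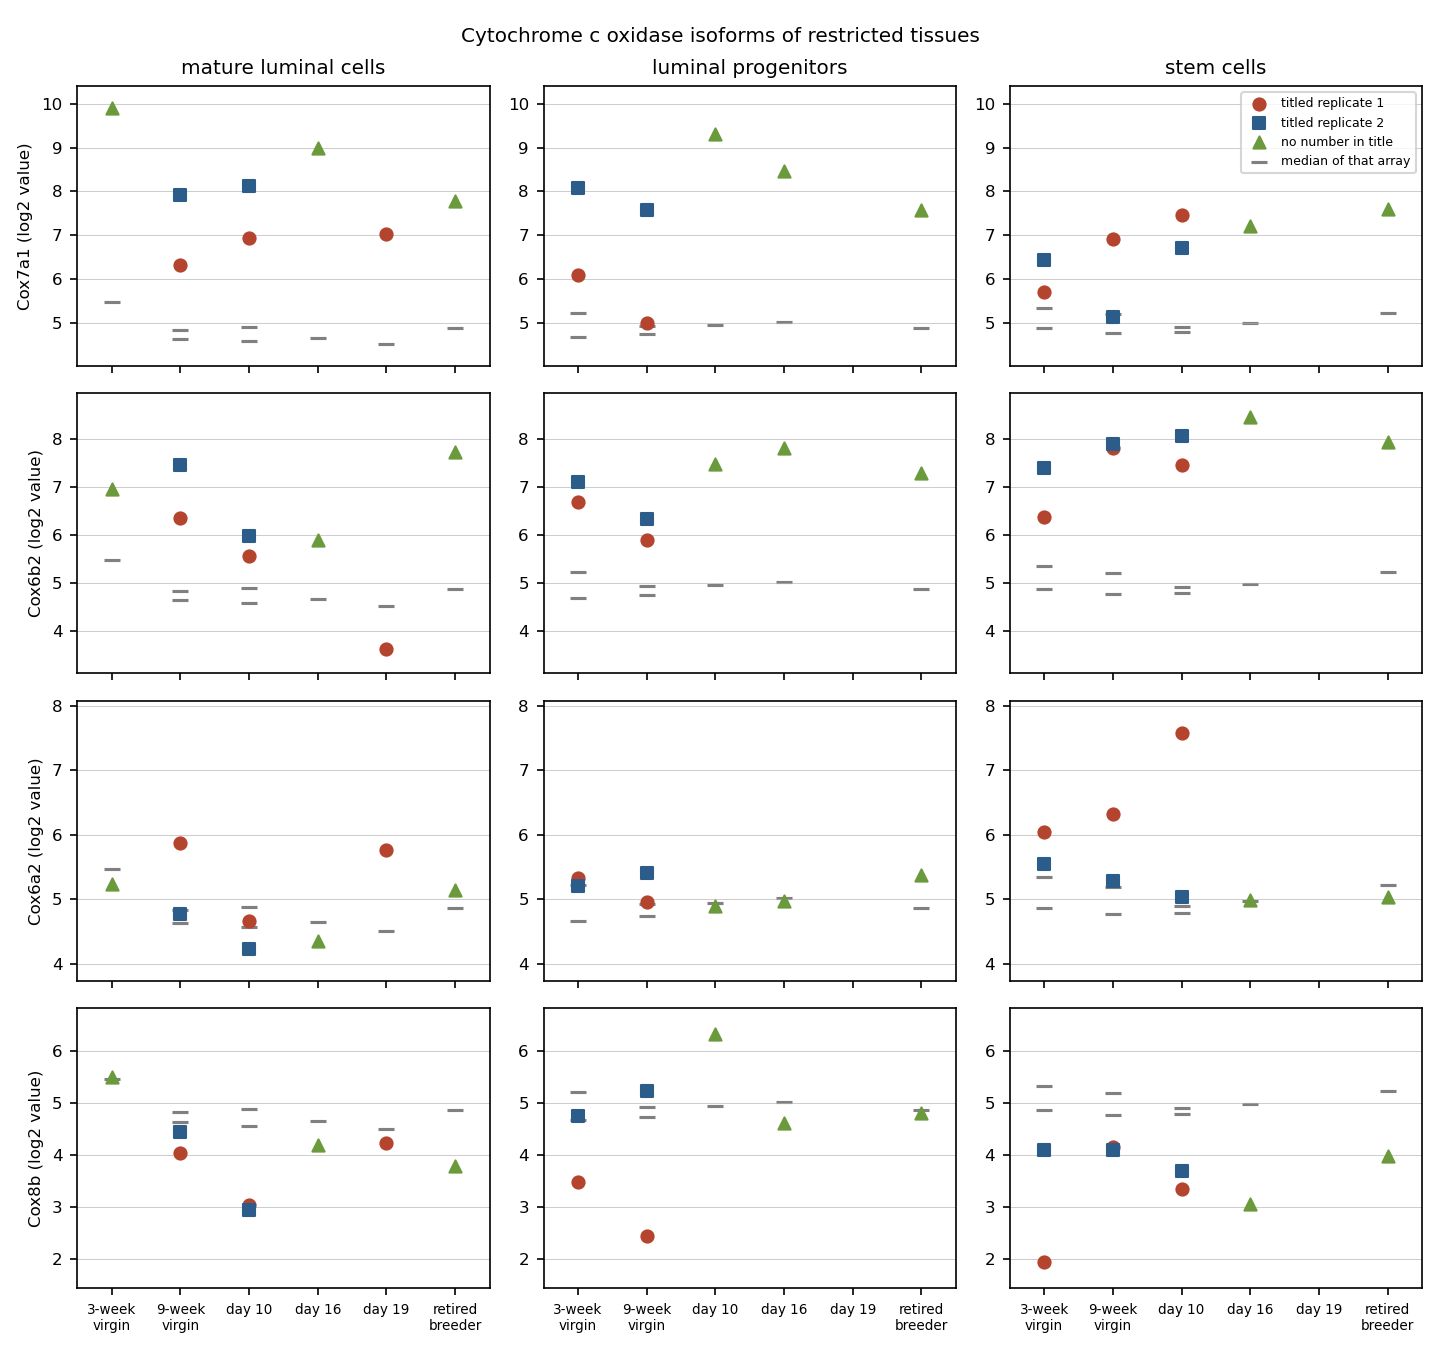
Log2 values of Cox7a1, Cox6b2, Cox6a2 and Cox8b on each array by stage (x axis) and cell type (columns), with the replicate number of the title as colour and shape and a grey dash at the median of that array. Cox7a1 and Cox6b2 lie above the dash on nearly all arrays, and the day 19 mature luminal array, at 3.61, is the lowest for Cox6b2.

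The other genes of the pathway were described by their counts in mid-pregnancy against 9-week virgins, where 3.77% of all genes were higher and 3.36% lower. Of 18 ATP synthase genes 1 was higher, Atp5o (0.70 ± 0.18), with 18 of 18 above 0 and a median of 0.31. Of 37 assembly factors 3 were higher: Sdhaf1, which assembles complex II (2.02 ± 0.34), Acad9, which assembles complex I (1.66 ± 0.29), and Bcs1l, which inserts the Rieske protein of complex III (1.18 ± 0.32). The 54 mitochondrial ribosome genes had a median of 0.66, and 7 were higher, led by Mrpl34 (1.75 ± 0.40), Mrps26 (1.04 ± 0.28), Mrps15 (1.04 ± 0.25) and Mrps28 (0.91 ± 0.24). Of 17 genes of the tricarboxylic acid cycle and pyruvate dehydrogenase 2 were higher, Pdhb (0.74 ± 0.16) and Idh3g (0.66 ± 0.15), with a median of 0.41. Of 15 glycolysis genes 2 were higher, Ldhb (2.03 ± 0.46) and Pfkl (1.49 ± 0.38), with a median of 0.03.

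Of 20 regulators of mitochondrial biogenesis, 2 were lower in mid-pregnancy, the mitochondrial DNA helicase Twnk (-1.68 ± 0.45) and the GABP subunit gene Gabpb1 (-1.25 ± 0.32). None was higher in limma, and the median was -0.17. Of 11 other respiratory chain genes 0 passed in limma, with a median of 0.39. Between mature luminal and stem cells, where 1.56% of all genes were higher and 6.78% lower, Etfa, an electron transfer flavoprotein, was the 1 of these 11 that was higher (0.98 ± 0.24), and Pdha1 was the 1 of 17 in the tricarboxylic acid cycle list (0.63 ± 0.17). Of 15 glycolysis genes 1 was lower, Pfkp (-1.30 ± 0.31). In that comparison 18 of 18 ATP synthase genes were above 0 with 0 passing in limma and a median of 0.31, and 52 of 54 mitochondrial ribosome genes were above 0 with a median of 0.39. Over all genes these comparisons had medians of 0.10 and 0.03.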

How the data were processed

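The authors deposited 1 table of log2 expression values, covering 45101 probe sets on 23 arrays. Its values run from 0 to 14.28, which is how the scale was recognised. No source used here names the software that summarised or normalized the arrays. Values were used as deposited, with no pseudocount. Probe sets were named through the platform annotation: 34945 listed 1 symbol, 932 several and 9160 none. A gene was read from the probe set with the highest mean and kept if above the array's 40th percentile on at least 2 arrays, which left 15378 genes. Probe sets can share transcripts of related genes: 5 members' probe sets carry the suffix s and 8 the suffix x, which mark such sharing.

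A single linear model holding a mean for each of the 16 groups took in every array (limma 3.58.1, R 4.3.3), with eBayes along an intensity trend (7 residual and 4.74 prior degrees of freedom), so 9 groups of 1 array are assumed to vary like the 7 groups of 2. Tests were two-sided. Values after ± are standard errors. Cell types were averaged over 5 stages and stages over 3 cell types, with equal weight. Where left-out arrays emptied a group, the average ran over the stages or cell types that remained. Each side of the replicate split was instead fitted with additive terms for stage and cell type. That left 2 residual degrees of freedom among arrays titled replicate 1 and 8 among the others.

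Named members are, in each comparison, those that passed (up to 6 in each direction), the 3 smallest p-values where fewer than 3 passed, the succinate dehydrogenase subunits, the cytochrome c oxidase isoforms of restricted tissues with their counterparts, and the members with the highest and lowest mean of each complex; of other lists, up to 4 that passed. Cox7b is no member because no single-symbol probe set lists it. Members and lists were chosen with earlier results of these data known. Replicate numbers come from the array titles. Over the members alone, the deviations of 15 of 21 pairs of groups correlated above 0.1. For the block over all arrays, the 8 arrays without a number were placed with replicate 2. The labels do not say what the numbers mark or give this placement, which was chosen with earlier results of these data known, and the block counts over 23 arrays rest on it. Precision is limited by the number of arrays.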

Additional observations from a re-analysis of the deposited data

How the results depend on the processing

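Leaving out each array in turn gave 0 to 14 members passing for mid-pregnancy against 9-week virgins (median difference 0.36 to 0.66), 0 to 4 for mature luminal against stem cells (0.29 to 0.48) and 0 to 1 for luminal progenitors against stem cells (-0.16 to 0.11), and 0 in each of the other 9 comparisons. The median within mature luminal cells in mid-pregnancy ran from -0.08 to 0.61, within stem cells from 0.13 to 0.88 and between mature luminal cells and luminal progenitors from 0.26 to 0.54. For mid-pregnancy, where 4 members passed, 1 passed with the mean of all probe sets of a gene, and 0 with the probe set of largest variance, without the intensity trend, with only the groups compared, without the 2 luminal progenitor arrays of pregnancy, and on either side of the replicate split. Ndufb9 reversed to -0.16 among arrays titled replicate 1. With the replicate block, 10 passed over all 23 arrays and 0 over the numbered arrays. The share of all genes that were higher also moved, from 3.77% in the main fit to 8.48% with the block over all arrays. A changed count is therefore not particular to the members.

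For mature luminal against stem cells, where 1 passed, the replicate block gave 9 over all arrays and 2 over the numbered arrays, 1 of each lower. Over all genes, 1.56% were higher and 6.78% lower in the main fit, against 6.71% and 12.9% with the block over all arrays. Arrays titled replicate 1 gave 0 and the others 5, quantile normalization 2, the mean of probe sets 3 (1 lower), the probe set of largest variance 0, only the groups compared 0, and leaving out the 2 arrays of largest Gapdh excess 2 (1 lower). Without the intensity trend Uqcrc2 did not pass (adjusted p 0.131 in limma) and 1 other member was lower. For luminal progenitors against stem cells, where 0 passed, the block gave 2 and the arrays titled replicate 1 gave 1, which was lower. With the block over all arrays 4.81% of all genes were higher. For day 19 in mature luminal cells, where 0 passed, both blocks and the mean of probe sets gave 1 each. The replicate block changed no other count. The cause of these changes was not tested. No other comparison changed its count under any setting run, among them no filter on low genes and low values raised to the array median.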
